A study of Arabidopsis thaliana with 18 samples.

Results

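The AP2/ERF family is the set of plant transcription factors that carry the AP2 DNA-binding domain, annotated in many databases as "Integrase-type DNA-binding" proteins. Its members were taken here as the Arabidopsis thaliana nuclear genes whose deposited description held one of 6 phrases (the integrase-type wording, several spellings of ethylene response factor, "ERF domain" or "AP2 domain"), with 3 cold-response genes left out by the same rule. This gave 109 members among 37916 genes in the table. Seedling messenger RNA was measured in 18 libraries that form 6 groups of 3. The genotypes were wild type (WT) and a mutant labelled PRMT5 T-insert (called prmt5), and each was sampled at 22 °C, directly after 3 days at 37 °C (called heat) and 24 h after that heat had ended (called recovery). PRMT5 is a protein arginine methyltransferase, and the series asks how it shapes the response to high temperature. All groups were grown on the same sucrose-containing medium; the allele, the number of mutant lines, plant age and recovery temperature are not given in the sources used here. Whether the libraries within a group stem from separate plants or cultures is not stated either, and p-values therefore reflect library-to-library spread that may be technical.

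The family falls into branches with different DNA targets. DREB proteins recognise the dehydration-responsive element and are known for switching on drought, cold and heat genes. ERF proteins recognise the GCC box and act downstream of ethylene and jasmonate, some as activators and others as repressors that carry an EAR motif. The AP2 branch, with its doubled domain, controls organ growth, flowering and seed development, and part of it is silenced by the microRNA miR172. Of the 109 members, 103 carry the AP2 domain in the deposited annotation. The 6 that do not are CRF12, AT1G01840, AT2G20350, AT4G20880, AT5G44350 and AT5G67000, so the phrases also caught proteins that are only ethylene-responsive or related by name. By published subgroup, 98 members fell into the branches named below and 11 were not placed. Another 37 family genes lay outside the rule because their descriptions are worded differently, among them DREB2A, CRF6, RAP2.2 and RAP2.12.

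Sequences of some members described below are shown first, and their part in the results was not tested. ERF1A (AT4G17500, chromosome 4, plus strand) and ERF2 (AT5G47220, chromosome 5, minus strand) encode closely related activators of defence genes. Theirs were the only 2 of 109 member promoters that held a heat shock element of 3 units (GAA, 2 free bases, TTC, 2 free bases, GAA), the pattern bound by heat shock factors, with either strand searched. That is 1.83% of members, against 0.481% of 27443 promoters of the same length of 300 bases (250 before and 50 after the annotated start, RefSeq, build TAIR10.1). The stretches upstream of both starts are given 5′ to 3′ on the gene's strand, with a G box (CACGTG) and the heat shock element in capitals.
ERF1A, chr4:9759081-9759155: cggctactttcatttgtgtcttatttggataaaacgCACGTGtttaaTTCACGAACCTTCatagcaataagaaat
ERF2, chr5:19172957-19173031: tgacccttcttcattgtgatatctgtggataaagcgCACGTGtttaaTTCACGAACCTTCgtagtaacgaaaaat
Set side by side without gaps, the windows were identical at 55 of 75 bases, and the longest identical run, of 26 bases, spans both elements. The G box alone was present in 11% of member promoters and in 7.68% of all, the GCC box (AGCCGCC) in 0.917% and 0.794%, and the dehydration-responsive element (ACCGAC or GCCGAC) in 9.17% and 8.72%. The W box (TTGACC or TTGACT), the motif of WRKY factors, was present in 30.3% and 32.4%, and the CGCG box (ACGCGT or CCGCGT) in 3.67% and 4.3%. Both strands were searched for each motif, and no motif contains another. These matches describe letters in a window and do not show binding.

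The AP2-branch members AP2, SMZ and SNZ carry a site for miR172, whose mature forms are given with their seed (bases 2 to 8) in capitals and share 1 seed.
ath-miR172a and ath-miR172b: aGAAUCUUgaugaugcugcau
ath-miR172c and ath-miR172d: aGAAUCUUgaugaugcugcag
ath-miR172e: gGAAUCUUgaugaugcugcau
The sites lie in coding exons and are written below with the bases that match the exact complement of miR172a in capitals. G opposite U is counted as unpaired, as for the lower-case g of each site.
AP2, chr4:17403019-17403039, plus strand: cTGCAGCATCATCAgGATTCT
SMZ, chr3:20373774-20373794, minus strand: tTGCAGCATCATCAgGATTCc
SNZ, chr2:16389066-16389086, minus strand: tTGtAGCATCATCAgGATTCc
Counted so, pairing covered 19 of 21 bases in AP2, 18 in SMZ and 17 in SNZ, and no other member held a site with as few as 4 unpaired bases.

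Levels are given as TPM (transcript abundance per gene length, with every library brought to 1 common total), so levels can be compared between genes and a read depth cannot be recovered. PRMT5 stood at 27.43, 26.25 and 25.28 TPM in WT at 22 °C, 47.72, 44.24 and 45.75 in heat and 39.03, 39.41 and 41.06 in recovery. In prmt5 it stood at 2.32, 3.35 and 4.51 TPM at 22 °C, 8.87, 5.44 and 5.64 in heat and 4.14, 3.8 and 3.44 in recovery (difference of means −32.74 TPM, exact two-sided permutation within conditions, p = 0.00025). Seedling tissue was represented at 22 °C by all 5 photosynthetic and all 12 root markers. The summed photosynthetic markers ran from 24030 to 32720 TPM at 22 °C, from 1725 to 3707 in heat and from 779.3 to 6659 in recovery. The summed root markers, led by PYK10, ran from 1278 to 3143 TPM at 22 °C and from 79.27 to 138.4 in heat. Root markers averaging at least 1 TPM numbered 6 in WT heat and 8 in prmt5 heat. Not every marker followed its sum. From 22 °C to heat in WT, SCR averaged 20.07 and 15.07 TPM, MYB36 2.283 and 2.293, and WOX5 2.483 and 5.053. The photosynthetic marker LHCB2.2 averaged 39.78 and 120.2 TPM in WT, and 119.2 and 16.22 in prmt5. A lower level of any transcript in these whole-seedling samples can come from fewer cells of a type or from less RNA per cell, which cannot be told apart.

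The family as a whole was mostly of low abundance. Of 109 members, 75 reached a mean of at least 1 TPM over the 18 libraries and were tested, 43 reached 5 TPM and 4 reached 50 TPM. The median member averaged 3.187 TPM, and RAP2.3 was highest at 143.9 TPM. The 34 untested members include the root stem-cell regulators PLT1 and PLT2, the shoot regulator DRN, the lateral-root gene PUCHI, the abscisic acid regulator ABI4 and the embryo gene BBM, none of them above 1.87 TPM in any library. CRF9 was untested by its mean and was still seen in 1 group, with 3.25, 3.35 and 2.96 TPM in prmt5 recovery and at most 0.63 TPM in the other 15 libraries. Because 29 of the tested members had a group mean under 1 TPM, some passed the filter through the group where they were high, and counts over tested members are read only against all genes tested.

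Summed over its 109 members in TPM as deposited, the family stood higher in every heat and recovery library than in any library at 22 °C. The 5 highest members of each group held 35.99% to 47.09% of its sum. The sums were 746.15, 775.2 and 723.54 TPM in WT at 22 °C, 1110, 1161.6 and 1283.4 in WT heat, and 1238.8, 1245.7 and 945.14 in WT recovery. In prmt5 they were 692.23, 644.43 and 672.26 TPM at 22 °C, 1396.9, 1397.1 and 1394.5 in heat, and 1978.3, 2075.3 and 1506.4 in recovery. In TPM, all 3 prmt5 recovery libraries lay above every other library, and library 3 was the lowest in both recovery groups. Median-ratio scaling divides each library by a factor. These factors ran from 0.7264 to 0.936 at 22 °C and from 1.162 to 1.212 in WT heat and recovery. They ran from 0.856 to 0.9464 in prmt5 heat and from 1.068 to 1.158 in prmt5 recovery. Neither order of the sums carries over to that scaling. Of the 75 tested members, 30 had their highest group mean in prmt5 recovery and 28 had their lowest in prmt5 heat. The same counts were not made over all genes, so these are not read as particular to the family.

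**Figure D1:**
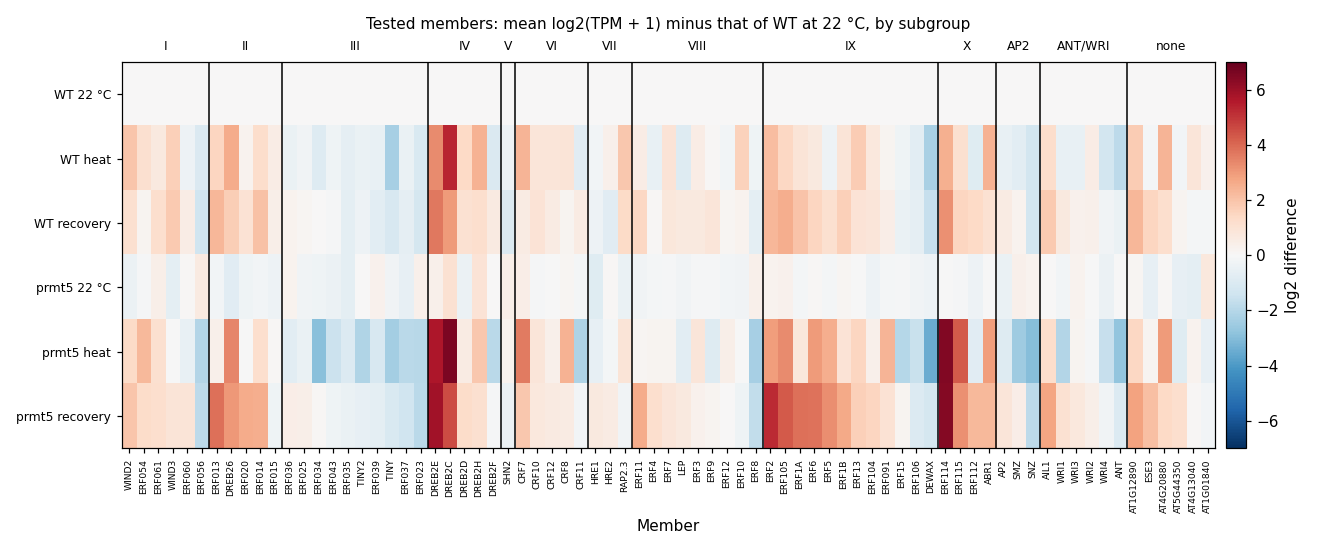
Each column is 1 of the 75 tested members, grouped by subgroup (I to IV are DREB subgroups, V to X are ERF subgroups), and each row is a group; colour is the mean log2(TPM + 1) of the group minus that of WT at 22 °C. Most of DREB III is blue in heat in both genotypes, and most of ERF IX and all of ERF X are red in prmt5 recovery.

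In heat, members were called in both directions at shares near those of all genes. In WT, 36 of 75 tested members rose and 24 fell (limma on log2(TPM + 1), adjusted p under 0.05), which is 48% and 32%, beside 49.8% higher and 25.7% lower among all genes tested (75.5% in either direction). In prmt5, 34 rose and 24 fell, beside 45.5% and 36% of all genes (81.5% in either direction). Members called in the same direction in both genotypes numbered 30 higher and 20 lower, and 1 member, ERF4, was called lower in WT and higher in prmt5. Shared calls were not counted over all genes, so no agreement particular to the family is read from them. The median log2 change was 0.33 in WT and 0.35 in prmt5, beside 0.35 and 0.19 over all genes. TPM fixes each library's total, and scaling to median ratios instead moved the median of all genes in WT heat from 0.35 to 0.00. Under it the WT split became 28 higher and 29 lower, and under quantile normalization 28 and 34, beside 37.2% higher and 37.3% lower of all genes under the first and 38% and 37% under the second. Calls on small changes therefore depend on the scaling, and those that do are named with their values.

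The largest increases in WT were in DREB IV, the branch of DREB2 factors; in prmt5 ERF114 of ERF X, described below, rose more. DREB2C, which is known to activate the heat shock factor gene HSFA3, stood at 0.82, 1.03 and 0.75 TPM in WT at 22 °C and at 57.94, 78.99 and 86.31 in WT heat. In prmt5 it stood at 2.48, 3.53 and 2.74 TPM at 22 °C and at 186.26, 179.47 and 171.02 in heat. The groups did not overlap in either genotype, and every prmt5 library lay above every WT library of the same condition.
DREB2C rose by 5.32 ± 0.15 on the log2 scale in WT (standard error, adjusted p = 6.79e-14) and by 5.53 ± 0.15 in prmt5. The difference of the responses was 0.21 ± 0.21 (adjusted p = 0.422), so the genotypes differed in level at all times (22 °C 1.06 ± 0.15, heat 1.27 ± 0.15, recovery 1.55 ± 0.15, adjusted p from 5.24e-07 to 0.000329) with no detected difference in the size of the heat response.
DREB2H, a neighbouring near-copy of DREB2C between which reads may be split uncertainly, rose from 0.41, 0.16 and 0.17 TPM to 6.79, 4.74 and 5.4 in WT heat and from 1.01, 1.57 and 1.75 to 4.71, 2.16 and 4.21 in prmt5 heat, and its response was smaller in prmt5 (−1.50 ± 0.33, adjusted p = 0.00144).

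DREB2E (named DREB19 in RefSeq) was listed at 0 in all 3 WT libraries at 22 °C and at 6.68, 8.94 and 12.03 TPM in WT heat. In prmt5 it went from 0.6, 0.19 and 0.1 TPM to 52.13, 47.18 and 48.51. The prmt5 heat libraries were all above the WT heat libraries, and this held in recovery with 61.66, 63.19 and 46.98 TPM against 14.27, 10.94 and 11.04.
The heat response of DREB2E was larger in prmt5 by 1.98 ± 0.26 (log2, adjusted p = 2.03e-05) and its recovery response by 1.80 ± 0.26 (adjusted p = 6.32e-05). Its gene overlaps 3 others on the opposite strand, by 42, 205 and 275 bases. One of these, the noncoding AT2G08960, averaged 15.2 TPM in WT heat and 26 TPM in prmt5 heat, and since the sources used here do not state whether reads were counted by strand, the partners cannot be told apart.
Across DREB IV, 4 of 5 tested members rose and 1 fell in heat in each genotype, also under both other scalings, beside 49.8% of all genes higher in WT and 45.5% in prmt5. The 1 that fell was DREB2F, which went from 3.24, 5.38 and 5.03 TPM to 2.64, 1.11 and 1.51 in WT.

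Other branches contributed further members that rose with heat. DREB26 of subgroup DREB II stood at 5.85, 6.78 and 4.97 TPM in WT at 22 °C and at 29.57, 44.37 and 49.24 in heat, and at 3.99, 2.28 and 2.7 rising to 68.87, 75.25 and 68.92 in prmt5. Its response was larger in prmt5 by 1.60 ± 0.42 (log2, adjusted p = 0.0053), and the heat libraries of the genotypes did not overlap.
WIND2 (AT1G22190), from a group of factors known for wound-induced dedifferentiation, rose from 18.55, 18 and 14.15 TPM to 58.61, 66.12 and 77.52 in WT and from 12.86, 11.82 and 12.09 to 45.37, 37.84 and 50.23 in prmt5. The responses did not differ detectably (−0.16 ± 0.24, adjusted p = 0.594).
Among the cytokinin response factors of ERF VI, 4 of 5 tested members rose in each genotype, also under both other scalings, beside the same 49.8% and 45.5% of all genes. CRF7 went from 3.11, 3.44 and 2.7 TPM to 17.51, 20.09 and 22.02 in WT and from 5.44, 4.68 and 3.9 to 51.23, 51.06 and 47.56 in prmt5, a response larger by 0.82 ± 0.19 (log2, adjusted p = 0.00181). CRF8 went from 11.84, 11.02 and 12.41 TPM to 22.36, 22.35 and 23.84 in WT and from 14.81, 13.08 and 11.08 to 60.25, 67.05 and 73.62 in prmt5.
CRF10 was the most abundant of the branch's genes that the rule caught. It rose from 27.35, 25.23 and 26.85 TPM to 44.69, 48.74 and 50.52 in WT. Its responses did not differ past the threshold (0.11 ± 0.17, adjusted p = 0.625), but with median-ratio scaling the response was called larger in prmt5 (0.35, adjusted p = 0.0409). CRF11 was the 1 of the 5 tested members that fell, from 23.08, 21.91 and 26.3 TPM to 14.41, 12.14 and 13.73 in WT and from 20.3, 23.37 and 21.69 to 5.49, 4.29 and 3.72 in prmt5. Genes of this branch outside the rule went both ways. CRF4, CRF5 and CRF6 stood higher in every WT heat library than at 22 °C. CRF1 and CRF2 stood lower, CRF2 at 17.58, 15.96 and 21.54 TPM at 22 °C and 7.93, 6.64 and 8.51 in WT heat.
AT4G20880, annotated as the ethylene-regulated nuclear protein ERT2 and without an AP2 domain, rose from 11.38, 11.83 and 10.05 TPM to 58.63, 63.41 and 66.9 in WT and from 12.26, 11.27 and 12.41 to 95.78, 101.56 and 87.67 in prmt5.

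**Figure D2:**
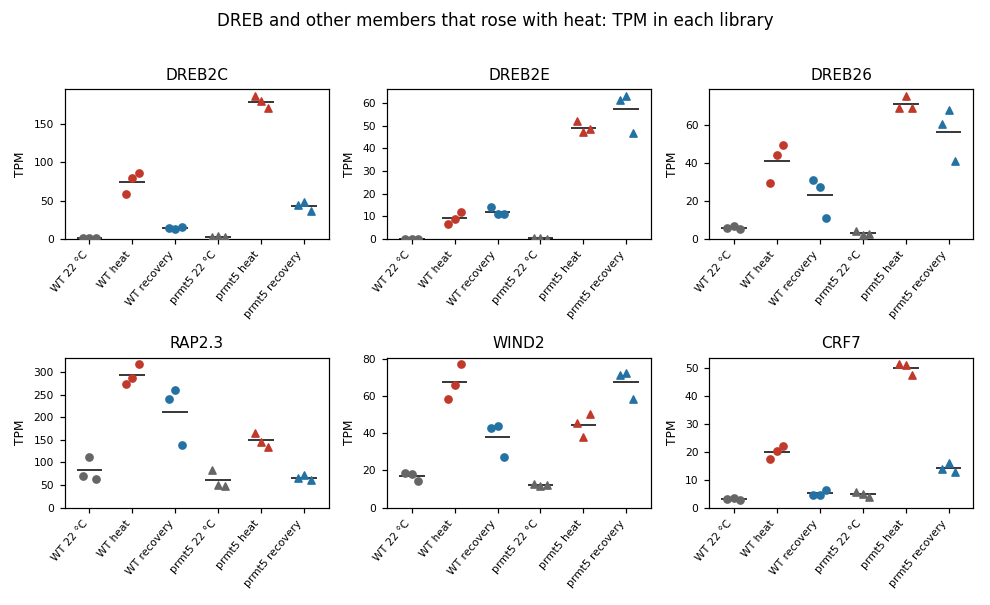
Points are TPM in single libraries (circles WT, triangles prmt5; grey 22 °C, red heat, blue recovery) and bars are group means, each panel on its own linear axis from 0. DREB2C, DREB2E, DREB26 and CRF7 are higher in every prmt5 heat library than in any WT heat library, whereas RAP2.3 and WIND2 are lower in prmt5 heat than in WT heat.

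Most of DREB III fell in heat. Of its 10 tested members, 9 fell in WT heat and 8 in prmt5 heat, and 0 rose in either, beside 25.7% and 36% of all genes lower. The median log2 change was −0.50 in WT and −1.35 in prmt5, and under the other scalings 9 and 10 members fell in WT and 8 fell in prmt5. The heat response differed between genotypes for 7 of the 10, each lower in prmt5, beside 33.3% of all genes lower. Under median-ratio scaling 6 were lower, beside 25.7% of all genes. Under quantile normalization 2 were lower and 1 higher, beside 23.8% and 25% of all genes.
ERF034, the most abundant of the branch, stood at 24.32, 24.25 and 18.35 TPM in WT at 22 °C and at 13.53, 9.75 and 10.72 in heat. The prmt5 libraries stood at 18.62, 17.8 and 16.4 TPM and fell to 2.67, 1.64 and 1.83 (difference of responses −1.71 ± 0.22, adjusted p = 2.1e-05). In recovery it was at 23.19, 20.15 and 23.87 TPM in WT and 21.8, 20.27 and 28.32 in prmt5, overlapping each other and the range of WT at 22 °C.
TINY, known for restraining growth, fell in WT from 11.84, 9.73 and 3.46 TPM to 0.53, 0.71 and 0.84. The third WT library at 22 °C stood apart here, and its root markers summed to 1278 TPM against 2996 and 3143 in the other two; their part in the result was not tested. Without that library the WT heat change of TINY was −2.80 in place of −2.33. ERF023 and ERF039 also fell in heat and stayed low in recovery, ERF023 from 3.25, 6.56 and 4.54 TPM in WT at 22 °C to 1.12, 1.27 and 1.85 in WT recovery and to 0.53, 0.43 and 0.58 in prmt5 recovery.

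In the AP2 branch, all 3 members with a miR172 site (shown above) fell in heat in both genotypes, under each scaling. Of all genes, 25.7% were lower in WT heat and 36% in prmt5 heat without rescaling. SMZ and SNZ are repressors of flowering and AP2 sets floral organ identity and seed size. SMZ stood at 11.71, 10.56 and 10.21 TPM in WT at 22 °C, 5.93, 5.86 and 6.84 in heat and 13.35, 16.92 and 10.24 in recovery.
In prmt5, SMZ stood at 12.48, 13.69 and 16.84 TPM at 22 °C, 1.58, 0.91 and 0.93 in heat and 18.42, 13.72 and 14.9 in recovery. The groups at 22 °C and heat were separate in both genotypes and the heat fall was deeper in prmt5 by 2.13 ± 0.24 on the log2 scale (adjusted p = 6.16e-06). SMZ shares 544 bases with AT3G54980 on the opposite strand, which averaged 12 TPM in WT heat and 13.7 TPM in prmt5 heat.
SNZ stood at 7.89, 8.63 and 10.83 TPM in WT at 22 °C and at 5.91, 2.29 and 2.24 in heat, and at 9.94, 10.26 and 12.99 falling to 0.27, 0.24 and 0.27 in prmt5. Its fall was deeper in prmt5 (difference −1.99 ± 0.36, adjusted p = 0.000285), and in recovery it was still at 2.82, 2.71 and 3.75 TPM in WT and 1.59, 1.25 and 2.65 in prmt5.
AP2 differed in course, from 24.58, 20.85 and 20.77 TPM to 13.37, 15.12 and 16.14 in WT heat and 34.49, 33.31 and 30.21 in WT recovery. In prmt5 it was at 12.78, 16.84 and 18.81 TPM at 22 °C, 12.54, 11.22 and 10.77 in heat, where its lowest 22 °C library lay close to the heat libraries, and 41.17, 41.31 and 38.4 in recovery. Its heat response did not differ detectably between genotypes (0.10 ± 0.17, adjusted p = 0.657), but with median-ratio (0.33, adjusted p = 0.0349) or quantile scaling (0.45, adjusted p = 0.0102) it was called higher in prmt5.

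ANT, which promotes organ growth by keeping cells dividing, fell from 37.28, 37.33 and 40.9 TPM to 8.95, 8.14 and 13.41 in WT heat and stood at 27.94, 30.85 and 23.94 in recovery. In prmt5 it went from 23.91, 47.07 and 50.17 TPM to 6.13, 3.38 and 5 in heat and 20.44, 18.43 and 19.38 in recovery. Heat and 22 °C did not overlap in either genotype.
The heat fall of ANT was −1.85 ± 0.24 in WT and −2.78 ± 0.24 in prmt5 (difference −0.93 ± 0.34, adjusted p = 0.0311), a difference not past the threshold under quantile normalization (−0.39, adjusted p = 0.285). In WT the 4 shoot meristem markers, whose sum is mostly KNAT1 and STM, did not fall with ANT: they summed to between 16.92 and 17.11 TPM at 22 °C and between 14.25 and 21.23 in heat. In prmt5 heat they summed to between 1.8 and 3.52 TPM, while WUS averaged 0.637 TPM there against 0.303 in WT heat, with CLV3 listed at 0 in prmt5 heat and prmt5 recovery. Library 1 of prmt5 at 22 °C, low in ANT, was also low in these markers (9.89 TPM against 17.08 and 16.57); their part in the result was not tested.
WRI1, an activator of fatty acid synthesis genes, fell from 10.69, 10.39 and 8.72 TPM to 6.7, 6.92 and 6.26 in WT heat and from 5.3, 9.6 and 11.74 to 2.24, 1.38 and 1.34 in prmt5 heat, and in recovery it stood at 16.45, 16.2 and 15.99 in WT and at 24.43, 26.54 and 16.88 in prmt5, all above 22 °C. The WT recovery call of WRI1 was lost under both other scalings (adjusted p = 0.173 and 0.106). AIL1 was listed at 0 in all 6 libraries at 22 °C and reached 3.33, 3.28 and 1.39 TPM in WT recovery and 5.81, 6.07 and 5.51 in prmt5 recovery. WRI4, a regulator of cuticular wax in stems, fell from 5.14, 4.76 and 6.28 TPM to 1.65, 1.45 and 1.84 in WT heat, with a response that did not differ detectably in prmt5 (0.06 ± 0.25, adjusted p = 0.863).

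**Figure D3:**
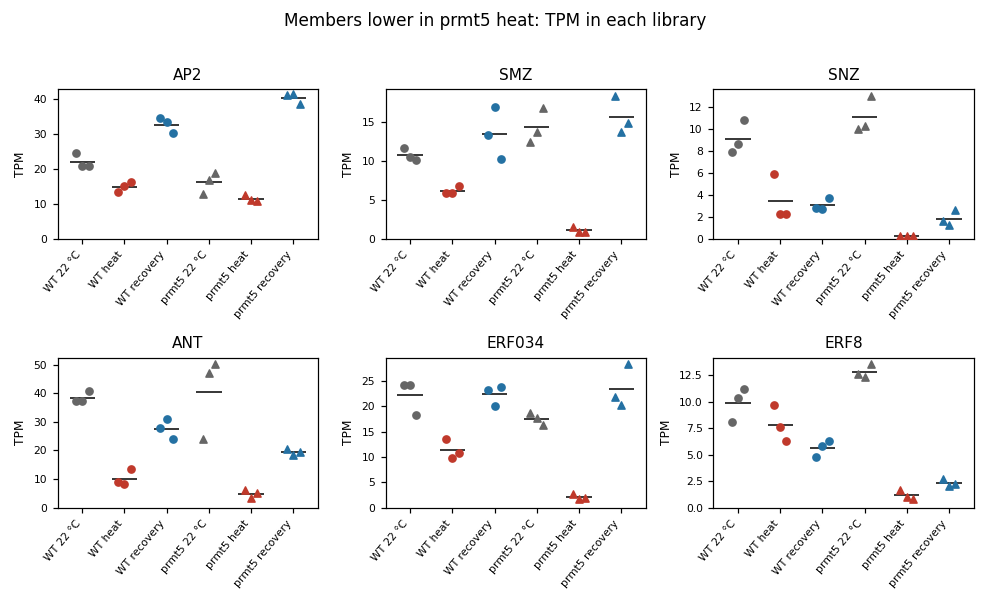
Points are TPM in single libraries (circles WT, triangles prmt5; grey 22 °C, red heat, blue recovery) and bars are group means, each panel on its own linear axis from 0. All 6 members have their lowest mean in prmt5 heat; SMZ, AP2 and ERF034 return in recovery, while SNZ and ERF8 stay low.

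The ERF VIII members, most of them EAR-motif repressors, moved in several directions. ERF8 stood at 8.1, 10.41 and 11.17 TPM in WT at 22 °C, 9.67, 7.61 and 6.29 in heat and 4.79, 5.81 and 6.32 in recovery, and WT heat overlapped WT at 22 °C. In prmt5 it went from 12.6, 12.35 and 13.55 TPM to 1.66, 1.01 and 0.8 in heat and 2.73, 2.07 and 2.22 in recovery, with no overlap. The heat response differed by −2.39 ± 0.24 (adjusted p = 2.42e-06) and the recovery response by −1.34 ± 0.24 (adjusted p = 0.000377).
ERF4, the most abundant member of the subgroup, went the other way. It stood at 28.8, 30.05 and 29.59 TPM in WT at 22 °C, 19.88, 20.81 and 20.91 in heat and 32.5, 32.65 and 28.71 in recovery. The prmt5 levels were 28.1, 24.08 and 26.74 TPM, then 34.49, 33.09 and 33.91, then 70.2, 70.98 and 59.88.
The fall of ERF4 in WT heat was −0.50 ± 0.08 and its rise in prmt5 heat 0.35 ± 0.08, a difference of 0.85 ± 0.11 (adjusted p = 2.08e-05). Under the other scalings the fall in WT and the difference kept their calls, whereas the change in prmt5 heat did not pass (0.20, adjusted p = 0.0614, and 0.09, adjusted p = 0.334). ERF10 rose in WT heat from 1.2, 0.67 and 1.03 TPM to 3.94, 6.28 and 4.71, stood at 0.75, 0.99 and 1 TPM in prmt5 heat, and its responses differed by −1.40 ± 0.26 (adjusted p = 0.000363). ERF11 was highest in prmt5 recovery, at 17.17, 18.35 and 15.05 TPM against 8.4, 8.46 and 4.87 in WT recovery.

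The genotypes were close at 22 °C. Of 75 tested members, 3 were higher and 4 lower in prmt5 (limma), beside 3.64% and 11.3% of all genes (14.9% in either direction). The higher ones were DREB2C, DREB2H and CRF7, all with group means under 5 TPM at 22 °C. The lower ones were HRE1, AT4G13040, AP2 and the DREB III member ERF037, the last named after its values were seen and not called under quantile normalization (adjusted p = 0.15).
AT4G13040 stood at 12.24, 11.76 and 14.77 TPM in WT and 6.81, 6.74 and 9.74 in prmt5 (−0.68 ± 0.17, adjusted p = 0.0174). The call of AT4G13040 was lost without WT library 3 or without prmt5 library 1 or 2 (adjusted p from 0.054 to 0.0781). That of AP2 was lost without library 1 of WT (adjusted p = 0.113) or of prmt5 (adjusted p = 0.0796), and with only these groups in the fit 2 members passed.

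At heat the genotypes differed in many members and in both directions. In prmt5, 18 members were higher and 32 lower than in WT, which is 24% and 42.67%, beside 19.9% and 48.3% of all genes (68.2% in either direction). This split moved with the scaling, to 23 and 23 with median ratios (all genes 33.7% and 33.4%) and to 27 and 18 with quantile normalization (all genes 32.8% and 30.6%), as that of all genes did. In the test of the responses, 15 were higher and 23 lower in prmt5, beside 18% and 33.3% of all genes (51.3% in either direction). Median-ratio scaling gave 18 and 20 (all genes 27.4% and 25.7%), and quantile normalization 21 and 14 (all genes 25% and 23.8%).
The largest difference was in ERF X. ERF114, a factor tied to cell division and bud outgrowth, stood at 0.2, 0.34 and 0.35 TPM in WT at 22 °C and at 4.19, 7.22 and 8.33 in WT heat. In prmt5 it went from 0.26, 0.23 and 0.27 TPM to 80.95, 141.49 and 124.12.
The lowest prmt5 heat library lay far above the highest WT heat library, and the heat response of ERF114 was larger in prmt5 by 3.99 ± 0.35 (log2, adjusted p = 9.62e-07). ERF115, known for stem-cell replenishment after root cell death, went from 0.06, 0 and 0.24 TPM to 0.97, 2.09 and 1.31 in WT and from 0, 0.11 and 0 to 20.69, 21.94 and 19.35 in prmt5 (difference 3.25 ± 0.27, adjusted p = 6.69e-07). ABR1, a repressor in abscisic acid signalling, rose in both, to 4.31, 6.84 and 6.84 TPM in WT and 7.14, 9.37 and 9.54 in prmt5, and the heat groups differed by 0.48 ± 0.22 (adjusted p = 0.0654), a difference called higher in prmt5 with median-ratio (0.83, adjusted p = 0.00344) and quantile scaling (1.07, adjusted p = 0.000416).
In ERF IX, the branch of defence activators, ERF5 stood at 6.87, 6.52 and 4.84 TPM in WT at 22 °C and 3.47, 4.31 and 5.89 in WT heat, which overlap, and went from 6.36, 5.58 and 4.53 to 29.33, 43.68 and 50.75 in prmt5. Its response differed by 3.04 ± 0.43 (adjusted p = 4.35e-05). ERF6, which like ERF5 is known for restraining leaf growth under osmotic stress, stood at 5.19, 7.13 and 5.05 TPM in WT heat and 29.68, 30.44 and 35.09 in prmt5 heat.
ERF15 went the other way, at 10.12, 7.27 and 5.79 TPM in WT heat and 2.77, 1.14 and 1.16 in prmt5 heat (−1.72 ± 0.21, adjusted p = 3.48e-06). DEWAX, a repressor of leaf wax synthesis genes, fell in both, from 45.87, 42.46 and 57.67 TPM to 10.01, 8.14 and 9.48 in WT and from 41.52, 33.46 and 38.8 to at most 4.55 TPM in prmt5. ERF106, among the most abundant members at 22 °C with 95.61, 89.8 and 107 TPM in WT, fell to 74.97, 45.55 and 59.77 in WT heat and from 98.87, 73.9 and 71.11 to 40.56, 29 and 30.25 in prmt5 heat.
WIND3 in DREB I was lower in prmt5 heat, at 4.15, 1.87 and 2.41 TPM against 9.28, 9.08 and 15.46 in WT heat (−1.69 ± 0.46, adjusted p = 0.00427). ERF056 of the same subgroup fell from 10.13, 6.33 and 5.2 TPM to 0.51, 0.18 and 0.06 in prmt5 and from 4.25, 4.21 and 3.92 to 2.23, 0.94 and 1.48 in WT.

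In recovery more members were higher than lower. Against 22 °C, 42 members were higher and 11 lower in WT, beside 49.8% and 17.3% of all genes (67.1% in either direction), and 45 were higher and 13 lower in prmt5, beside 53.4% and 24.7% (78% in either direction). With median-ratio scaling these splits were 33 and 20 in WT (all genes 30.6% and 30.4%) and 39 and 15 in prmt5 (all genes 40% and 35.8%). With quantile normalization they were 31 and 21 in WT (all genes 32.7% and 30.5%) and 37 and 18 in prmt5 (all genes 38.8% and 36.9%).
Comparing the genotypes in recovery, 33 of 75 members were higher and 10 lower in prmt5, which is 44% and 13.33%, beside 27.8% and 31.9% of all genes (59.7% in either direction). The median log2 difference was 0.30, beside −0.04 over all genes. The other scalings gave 35 and 8 (all genes 32.5% and 28.8%), and 36 and 9 (all genes 31.1% and 30.9%). In the test of the responses, 29 members (38.67%) were higher and 6 (8%) lower in prmt5, beside 26.1% and 20.1% of all genes (46.2% in either direction).
Library 3 had the lowest family sum of each recovery group. Without both of these libraries, 30 members were higher and 6 lower, beside 5515 and 6000 of all 21831 genes. In the test of the responses 29 and 6 were, beside 5358 and 4012 of all genes. The summed root markers, mostly PYK10, overlapped at 963.1 to 1734 TPM in WT recovery and 1467 to 1594 in prmt5 recovery. Single root markers separated both ways, SCR lower in prmt5 (19.24 to 20.75 and 11.13 to 11.87) and MYB36 higher (3.13 to 6.14 and 7.27 to 9.61). The sums of the photosynthetic markers (3373 to 6659 and 779.3 to 1800), the meristem markers (25.46 to 34.63 and 11.11 to 11.23) and the 4 floral markers, mostly SEP3 (27.39 to 51.13 and 13.68 to 19.54), were lower in prmt5. Within these lists LHCB2.2 (48.71 to 135.4 and 17.69 to 117.6) and STM (3.73 to 6.41 and 3.27 to 4.47) overlapped, and AP3 averaged 4.96 TPM in WT and 6.09 in prmt5. The part of the markers in the result was not tested.

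**Figure D4:**
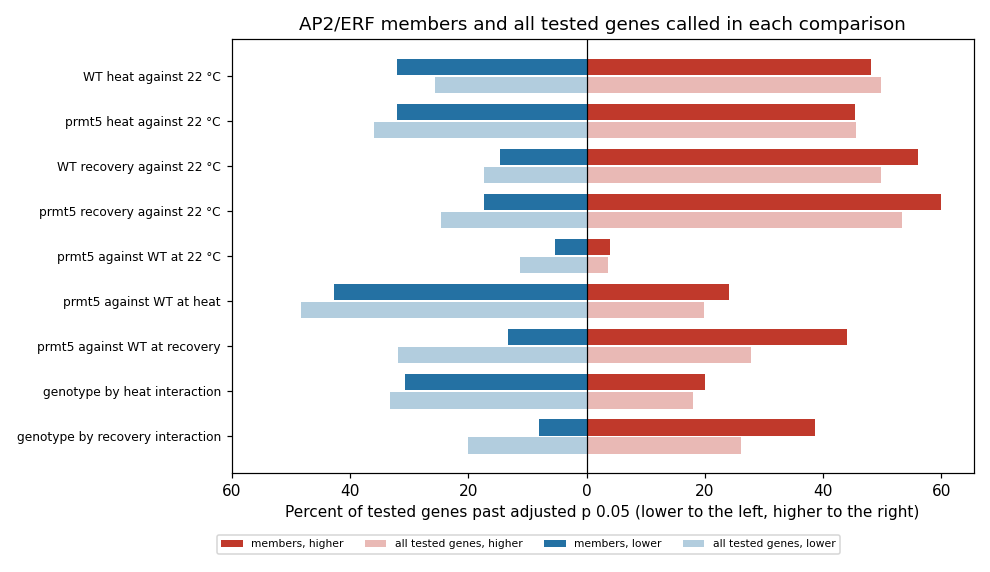
Bars show the percent of the 75 tested members (solid) and of all 21831 tested genes (pale) past an adjusted p of 0.05 in each comparison, higher to the right in red and lower to the left in blue. Members and all genes part most in prmt5 against WT at recovery, with 44% of members higher beside 27.8% of all genes and 13.33% lower beside 31.9%.

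In ERF IX, 10 of 12 tested members were higher in prmt5 recovery than in WT recovery and 0 were lower, under each of the 3 scalings, with a median log2 difference of 0.85. In ERF X, all 4 were higher, also under each scaling, with a median of 1.45. Among all genes, 27.8% were higher and 31.9% lower without rescaling.
ERF2, whose promoter is shown above, stood at 5.68, 5.89 and 6.21 TPM in WT at 22 °C, 29.98, 29.23 and 29.51 in heat and 42.83, 37.67 and 24.4 in recovery. The prmt5 libraries held ERF2 at 9.75, 6.2 and 6.23 TPM at 22 °C, 40.28, 48.91 and 67.03 in heat and 308.75, 296.36 and 189.58 in recovery. The lowest prmt5 recovery library was above the highest of every other group.
The genotypes differed in recovery by 2.89 ± 0.23 (log2, adjusted p = 1.02e-07) for ERF2, and the responses by 2.64 ± 0.32 (adjusted p = 1.75e-05), while the heat responses did not differ detectably (0.51 ± 0.32, adjusted p = 0.2). ERF1A, which shares the element, stood at 9.59, 9.41 and 8.78 TPM in WT at 22 °C, 15.57, 20.03 and 19.65 in heat and 58.48, 45.87 and 23.71 in recovery. For prmt5 the ERF1A levels were 9.73, 7.92 and 7.8 TPM, then 17.2, 14.11 and 18.55, then 175.79, 218.06 and 84.49.
For ERF1A no difference between genotypes was detected in heat (−0.14 ± 0.31, adjusted p = 0.705), and it was higher in prmt5 by 1.86 ± 0.31 (adjusted p = 9.33e-05) in recovery, where the groups did not overlap. ERF5 and ERF6 lie beside them: ERF6 is the next protein-coding gene to ERF1A, and 1 protein-coding gene separates ERF5 from ERF2.
ERF5 stood at 17.99, 16.42 and 10.02 TPM in WT recovery and 81.92, 91.22 and 36.54 in prmt5 recovery. ERF6 stood at 12.59, 12.57 and 8 TPM in WT recovery and 68.56, 89.65 and 29.93 in prmt5 recovery. Both were already above every WT library in prmt5 heat, as given above.
ERF105, tied to cold and stress responses, stood at 16.47, 17.63 and 8.25 TPM in WT recovery and 55.69, 59.25 and 32.61 in prmt5 recovery. It shares 965 bases with AT5G51180 on the opposite strand, which averaged between 8.8 and 17.4 TPM over the groups and was lowest in prmt5 recovery. ERF1B, the ethylene and jasmonate integrator, was low and followed the branch, with 3.29, 2.79 and 1.44 TPM in WT recovery and 7.22, 8.69 and 2.74 in prmt5 recovery.

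**Figure D5:**
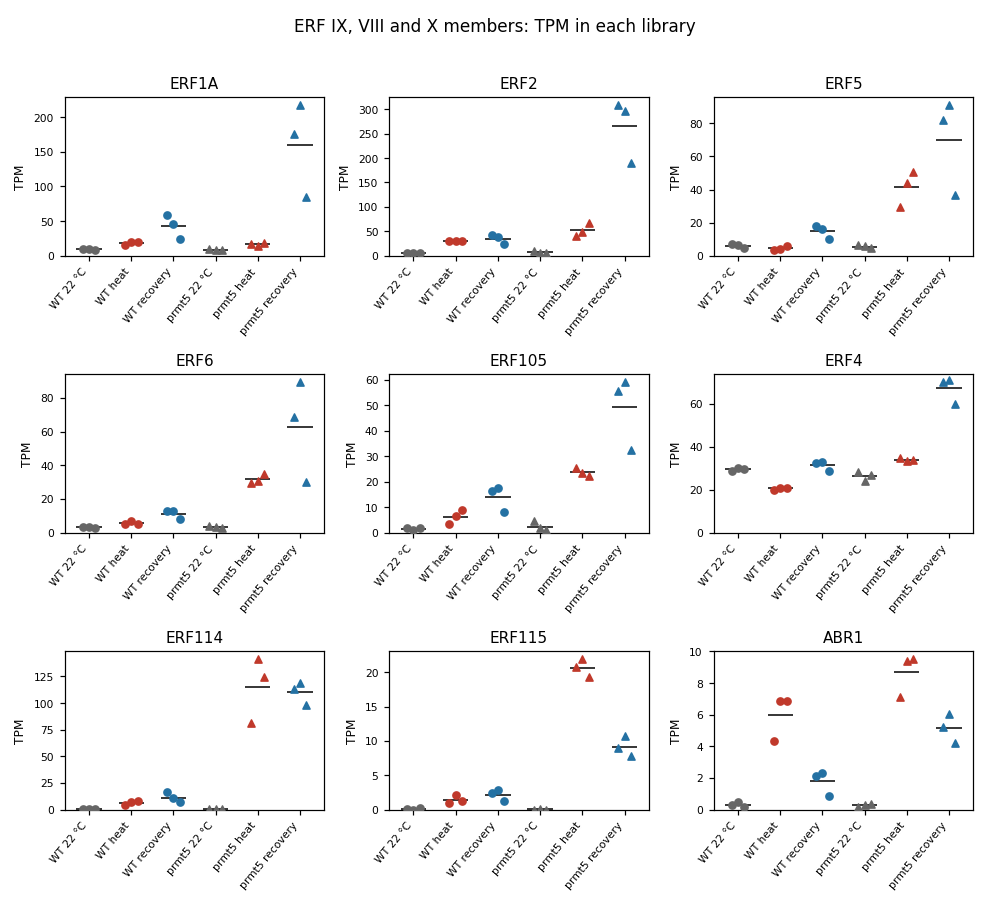
Points are TPM in single libraries (circles WT, triangles prmt5; grey 22 °C, red heat, blue recovery) and bars are group means, each panel on its own linear axis from 0. ERF1A, ERF2 and ERF4 stand apart mainly in prmt5 recovery, ERF5, ERF6 and ERF105 in prmt5 heat and recovery, and ERF115 mostly in prmt5 heat; the third prmt5 recovery library is the lowest of its group in every panel.

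In ERF X, ERF114 stayed high in prmt5 recovery, at 113.37, 118.98 and 97.81 TPM against 16, 10.38 and 7.31 in WT recovery (3.24 ± 0.25, adjusted p = 8.41e-08). ERF115 fell back from its heat level to 8.97, 10.69 and 7.84 TPM in prmt5 recovery, still above the 2.34, 2.84 and 1.31 of WT. ERF112 rose in recovery and not in heat, to 7.94, 6.21 and 7.37 TPM in WT and 16.17, 17.61 and 9.03 in prmt5, where no library of one genotype reached into the range of the other.
Members of DREB II that were quiet in prmt5 heat also rose. ERF013 stood at 11.62, 7.71 and 4.22 TPM in WT recovery and 28.17, 29.39 and 14.41 in prmt5 recovery, against 1.53, 0.83 and 1.19 in prmt5 heat. ERF020 stood at 2.28, 1.64 and 1.13 TPM in WT recovery and 8.16, 9.58 and 4.27 in prmt5 recovery.

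The ERF VII factors, which sense oxygen through the N-degron pathway and switch on hypoxia genes, did not move together. RAP2.3, the most abundant of the 109 members caught by the rule, stood at 70.29, 112.58 and 64.21 TPM in WT at 22 °C, 274.32, 286.22 and 318.86 in heat and 239.81, 260.09 and 138.01 in recovery. The prmt5 levels of RAP2.3 were 82.81, 48.85 and 48.58 TPM, then 165.55, 145.73 and 134.63, then 65.55, 72.7 and 60.51.
The prmt5 recovery libraries lay within the range of prmt5 at 22 °C and below every WT recovery library. RAP2.3 was lower in prmt5 recovery (−1.62 ± 0.25, adjusted p = 4.63e-05), and its recovery response differed by −1.17 ± 0.35 (adjusted p = 0.0126). Without WT recovery library 3 the difference in recovery was −1.90.
HRE1 and HRE2, which are induced by low oxygen, were at 11.94, 11.42 and 5 TPM and at 5.37, 5.68 and 1.21 TPM in WT at 22 °C, where library 3 was again the lowest. In prmt5 recovery HRE1 stood at 15.53, 13.71 and 15.1 TPM against 6.28, 8.05 and 6.16 in WT recovery, and HRE2 at 5.18, 7.74 and 4.59 against 1.77, 1.7 and 1.52. Both were higher in prmt5 recovery, HRE1 by 1.02 ± 0.23 (adjusted p = 0.00143) and HRE2 by 1.33 ± 0.33 (adjusted p = 0.00289).
HRE1 shares 124 bases with AT1G72370 on the opposite strand, which averaged 594 TPM in prmt5 recovery and 1140 TPM in WT recovery. At 22 °C HRE1 was lower in prmt5 (−0.86 ± 0.23, adjusted p = 0.0226), and that call was lost without WT library 1 or 2 or without prmt5 library 1, with adjusted p from 0.0885 to 0.117. Without WT library 3, the low one, the difference was −1.22.
Of 5 genes that act on ERF VII stability, 3 rose and 2 fell in heat in each genotype, under every scaling, beside 49.8% and 25.7% of all genes in WT and 45.5% and 36% in prmt5. PCO1 and PCO2, the cysteine oxidases that start the degradation, were those that fell, PCO1 from 20.05, 17.79 and 6.57 TPM to 0.94, 1.44 and 1.42 in WT. ATE1 and PRT6, the arginyl transferase and the ubiquitin ligase of the same route, rose, ATE1 from 13.96, 12.74 and 13.05 TPM to 52.17, 52.48 and 50.6 in WT and from 11.08, 11.45 and 12.33 to 45.4, 42.46 and 43.24 in prmt5.

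Few members were lower in prmt5 recovery. Besides RAP2.3 and ERF8, CRF11 stood at 36.15, 37.72 and 34.1 TPM in WT recovery and 20.4, 21.68 and 19.07 in prmt5 recovery (−0.79 ± 0.11, adjusted p = 2.33e-05). ERF9 stood at 7.11, 7.48 and 4.61 TPM and 3.44, 3.87 and 3.38, with no overlap. DREB2F stood at 7, 7.34 and 8.4 TPM and 4.56, 4.9 and 3.43, a difference of −0.70 ± 0.27 whose call (adjusted p = 0.0335) was lost under both other scalings and without any single one of the 6 libraries other than library 2 of prmt5 (adjusted p from 0.052 to 0.116).

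The ethylene pathway that gives much of the family its name was read from 15 tested signalling genes and 11 tested synthesis genes. Of the signalling genes, 13 rose and 0 fell in WT heat (median log2 change 0.47, beside 0.35 over all genes, of which 49.8% were higher), and 11 rose and 0 fell in prmt5 heat, beside 45.5% higher. With median-ratio scaling this became 7 higher and 1 lower in WT heat, with a median of 0.07, beside 37.2% and 37.3% of all genes. In prmt5 heat it became 11 and 2, beside 42.6% and 39.6% of all genes.
EIN2, the membrane protein that carries the signal to the nucleus, rose from 11.21, 7.5 and 7.92 TPM to 24.67, 21.16 and 27.14 in WT heat and from 7.32, 9.49 and 13.08 to 28.49, 23.46 and 22.39 in prmt5 heat. The receptor gene ETR1 stood at 19.21, 19.79 and 18.49 TPM in WT recovery and 35.16, 32.82 and 32.03 in prmt5 recovery (0.77 ± 0.09, adjusted p = 5.83e-06). In recovery, 4 of the 15 signalling genes were higher and 1 lower in prmt5 than in WT, beside 27.8% and 31.9% of all genes.
ACO4, an enzyme of the last step of ethylene synthesis, stood at 235.35, 245.82 and 264.92 TPM in WT at 22 °C, 822.16, 747.45 and 786.45 in heat and 392.35, 317.67 and 396.02 in recovery. The prmt5 levels of ACO4 were 334.57, 216.88 and 226.92 TPM, then 1527.87, 1148.67 and 1485.14, then 804.22, 866.77 and 816.79, above WT in every heat and recovery library. ACS7, an enzyme of the step before, was lower in prmt5 recovery (−2.06 ± 0.39, adjusted p = 0.000307), and of the 11 synthesis genes 5 were higher and 4 lower there, beside the same shares. Other genes of the ACS7 step went the other way. ACS2 stood at 4.82, 2.1 and 1.69 TPM in WT recovery and 53.61, 83.43 and 31.4 in prmt5 recovery. ACS6 stood at 20.74, 18.36 and 28.28 TPM and at 101.68, 132.05 and 56.55. Every prmt5 recovery library also lay above WT recovery for ACS8, and below it for ACS11.
Of the 4 output genes, PR4 stood at 313.36, 312.53 and 281.6 TPM in WT recovery and 684.57, 743.48 and 553.03 in prmt5 recovery. PDF1.2, a defensin gene activated by ERF IX factors, was at 17.83, 20.43 and 39.85 TPM in WT at 22 °C and 2.25, 0.73 and 1.98 in prmt5, and was listed at 0 in all 12 heat and recovery libraries.

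Of 32 tested family genes outside the rule, 9 were higher and 11 lower in prmt5 recovery than in WT recovery, shares near the 27.8% and 31.9% of all genes, with a median of 0.01. The difference from the members was not tested. DREB2A, the best known heat-responsive DREB, stood at 3.27, 5.12 and 2.18 TPM in WT at 22 °C and 35.67, 49.06 and 48.26 in heat, and CRF6 at 6.2, 5.77 and 6.84 and 115.07, 103.48 and 120.79. The ERF VII gene RAP2.12 stood at 201.52, 205.11 and 199.41 TPM in WT recovery and 198.95, 199.58 and 207.15 in prmt5 recovery, and RAP2.2 at 157.36, 160.34 and 114.5 against 101.03, 103.51 and 93.5.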

How the data were processed

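Groups were taken from the labels. Poly(A) RNA was prepared with a TruSeq kit, per the labels' protocols. The authors deposited TPM for 37916 genes, made with RSEM on TAIR10 per the submitters' processing notes; versions and the use of strand are not given in the sources used here. TPM keeps no depth, so depth is unknown and no counting interval was computed. The deposited gene length column was used only to match transcripts to TAIR10.1, where 107 of 109 member lengths were equal.

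The 21831 genes with a mean of at least 1 TPM were fitted on log2(TPM + 1), which understates changes of low genes, as 6 group means with 12 residual degrees of freedom in limma 3.58.1 (eBayes with trend, R 4.3.3). The tests were two-sided, with Benjamini-Hochberg adjustment across these genes within each of 9 comparisons and a threshold of 0.05; a test of the responses is the interaction of genotype and condition. The scripts were tested on simulated data. Python 3.11.15, pandas 2.3.3, numpy 2.4.6 and matplotlib 3.10.9 were used for tables and figures.

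Named are, per comparison, up to 5 members each way (3 for interactions and for 22 °C) with the largest called change and at least 5 TPM in the highest group, the most abundant of each subgroup, all ERF VII members, and up to 4 genes of each ethylene, ERF VII turnover and family list by their WT heat change. Others (among them ERF1A, CRF1, CRF2, CRF4, CRF5, CRF7, CRF8, ERF020, ERF1B, AIL1, WRI1, ERF10, ERF11, ERF112, CRF9, DREB2H, ERF037, RAP2.2, RAP2.12, ACS2, ACS6 and ACS8) were chosen after their values were seen. The members and lists were chosen with earlier results of these data known. Alternatives were pseudocounts, filters on low values, median-ratio and quantile scaling, only the compared groups, a block for replicate number and omission of single libraries; leaving out library 3 of both recovery groups was added after seeing the data.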

Additional observations from a re-analysis of the deposited data

Results flagged for a closer look

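The genotypes responded differently to heat, by the interaction of genotype and heat (limma, log2, prmt5 minus WT), in ERF114 (3.99), ERF115 (3.25), ERF5 (3.04), ERF8 (−2.39), SMZ (−2.13) and SNZ (−1.99). Adjusted p ran from 6.69e-07 to 0.000285.

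Their recovery responses differed in ERF114 (3.29), ERF2 (2.64), ERF5 (2.22), ERF8 (−1.34), RAP2.3 (−1.17) and ERF056 (−1.08), with adjusted p from 6.58e-06 to 0.0126. ERF114, ERF5 and ERF8 stand in both lists, and both interactions share the libraries at 22 °C.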

How the results depend on the processing

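Of 94 log2 changes of named genes, recomputed to 1386 alternative values, 1361 kept their direction and side of the threshold, 25 lost the call and 0 changed direction. The losses fell on HRE1, AP2 and AT4G13040 at 22 °C, DREB2F and TINY in recovery, and ACS7 and ACS11 in WT heat under quantile normalization.

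Requiring a mean of at least 5 TPM left 43 members, and the calls became 36 for WT heat, 37 for prmt5 heat, 32 for WT recovery, 36 for prmt5 recovery, 27 for prmt5 against WT in recovery, 25 for the heat interaction and 23 for the recovery interaction; fewer members tested is part of this filter's construction. For prmt5 against WT at 22 °C the 7 calls became 11 under quantile normalization and 2 with only those groups in the fit, and ran from 2 to 9 without single libraries; the cause was not tested. Without WT library 1 they were 3, and without prmt5 library 1 or 2 they were 2 and 4.

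Leaving out single libraries gave 53 to 59 calls for WT heat, 56 to 60 for prmt5 heat, 51 to 54 for WT recovery, 56 to 58 for prmt5 recovery, 44 to 52 and 37 to 42 for the genotypes in heat and in recovery, and 33 to 39 and 30 to 39 for the interactions. The labels do not say whether libraries of the same number belong together. In their deviations from the group means, 8 of 45 same-numbered pairs of libraries correlated above 0.1 (range −0.195 to 0.189). Library 3 of both recovery groups was among these, at 0.18. Pairs with different numbers ran from −0.206 to 0.267, and a batch shared by number was not tested. With a replicate block the calls were 58, 57, 52 and 58 for the 4 responses, 9, 49 and 41 for the genotypes at 22 °C, heat and recovery, and 38 and 33 for the interactions. TPM keeps no depth, so the precision of low members rests on the 3 libraries of each group.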
